A study of Mus musculus with 24 samples.

Results

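The levels of 10 transcriptional regulators that build and hold the B cell programme were followed across 6 groups of mouse bone marrow arrays. The genes are Tcf3, Ebf1, Foxo1, Pax5, Ikzf1, Ikzf3, Lef1, Bach2, Spib and Pou2af1, the last of which encodes a coactivator rather than a DNA-binding factor. They were listed by name, found by the platform's gene symbol, and read from the probe set with the highest mean over the 24 arrays. All 10 were found among 19938 measured genes, each with 1 probe set.

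The study set leukaemias driven by the BCR/ABLp190 fusion kinase, with or without loss of a Pax5 copy, against normal B cells, and did the same in precursors before leukaemia. The oncogene ran from the Sca1 promoter, which is active in haematopoietic stem and progenitor cells, and all mice were housed conventionally and exposed to common pathogens. Tumour-bearing marrow came from 7 mice with the oncogene that were heterozygous for Pax5 (Pax5 +/-), called heterozygous leukaemias here. It also came from 2 mice with the oncogene and no Pax5 alteration in their label, called BCR/ABL leukaemias. Both were set against B cells sorted from wild-type marrow by the surface marker B220 (B220+ cells, 5 mice). Pro-B and pre-B cells came from 3 preleukaemic mice with the oncogene and Pax5 +/- (heterozygous precursors), 3 with the oncogene alone (BCR/ABL precursors) and 4 samples of wild-type mice (wild-type precursors). The series text counts 3 wild-type precursor mice where the labels give 4 samples, and all 4 were used. The labels state neither ages nor litters nor how the Pax5 allele was made. Levels are log2 values per probe set, so a difference of 1 is a 2-fold difference, and changes are log2 differences ± SE from limma with p-values adjusted over all genes.

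In the early lymphoid progenitor, the E protein encoded by Tcf3 and the forkhead factor Foxo1 help to switch on Ebf1, and Ebf1 and Tcf3 then help to switch on Pax5. Pax5 commits the cell to the B lineage by activating B cell genes and silencing those of other lineages, and Ebf1 and Pax5 sustain one another. Ikaros family proteins (Ikzf1, Ikzf3) are needed for lymphoid development and for the pre-B cell to stop dividing. PAX5 and IKZF1 are recurrently deleted or mutated in human B cell precursor leukaemia.

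Start-site regions are shown for Pax5, whose copy number the study altered, and for Foxo1 and Lef1, whose windows hold matches to motifs of other members. Windows of Ebf1 also held such matches and are not shown. Windows run from 250 bases before to 50 bases after a RefSeq start site on GRCm38.p6, 9 of the 10 members matched the table (all but Ikzf3), and together they had 14 windows. Foxo1 lies at chr3:52268087-52268386 (plus strand), Lef1 at chr3:131110073-131110372 (plus strand) and Pax5 at chr4:44710645-44710944 (minus strand). Capitals mark the match TCCCGAGGGA to an Ebf1 palindrome in Foxo1, and TGGGAA (Ikaros core) and CACCTG (E-box) in Lef1. The Pax5 window held none of the motifs searched.
Foxo1: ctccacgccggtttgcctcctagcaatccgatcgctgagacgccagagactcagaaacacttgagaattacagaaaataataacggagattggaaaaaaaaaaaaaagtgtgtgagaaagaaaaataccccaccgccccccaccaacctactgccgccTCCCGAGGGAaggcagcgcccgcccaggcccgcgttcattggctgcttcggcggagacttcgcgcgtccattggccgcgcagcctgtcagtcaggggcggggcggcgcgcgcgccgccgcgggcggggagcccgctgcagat
Lef1: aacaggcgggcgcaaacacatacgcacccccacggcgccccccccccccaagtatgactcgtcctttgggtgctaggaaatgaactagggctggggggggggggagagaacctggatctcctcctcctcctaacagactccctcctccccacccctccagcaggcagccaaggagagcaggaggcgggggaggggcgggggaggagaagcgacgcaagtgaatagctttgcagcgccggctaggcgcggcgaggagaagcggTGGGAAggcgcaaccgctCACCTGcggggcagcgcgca
Pax5: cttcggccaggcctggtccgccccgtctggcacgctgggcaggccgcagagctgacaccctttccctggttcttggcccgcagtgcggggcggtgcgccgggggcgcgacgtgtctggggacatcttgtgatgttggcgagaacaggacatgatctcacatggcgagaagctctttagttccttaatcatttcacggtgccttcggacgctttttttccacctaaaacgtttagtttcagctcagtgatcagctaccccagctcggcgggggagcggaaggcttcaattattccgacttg

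The 7 motifs, searched on both strands, were chosen after the arrays' values were seen. The Ebf1 palindrome, TCCC and GGGA parted by 2 bases of any kind, was in 0.904% of all 32851 windows and, among the members, in that of Foxo1 alone, 92 bases before the start site. The E-box CAGGTG was in 20.2% of windows and among the members only in Lef1. The Ikaros core TGGGAA, which can overlap the palindrome, was in 25.6% of windows and in 4 member windows, 3 of Lef1 and 1 of Ebf1. A pair of the Lef1 windows overlap and hold the same site, so these 3 windows hold 2 distinct sites. The TCF/LEF motif CTTTGAA was in 5.14% of windows and in 1 of Ebf1. The octamer ATGCAAAT (1.74% of windows), the forkhead motif GTAAACA (3.65%) and the ETS motif GAGGAAGT (3.2%) were in 0 of the 14 member windows.

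Depth has no meaning on these arrays, and precision is set by the number of arrays. The leukaemia samples were marrow rather than sorted cells, and their marker genes differ from those of the sorted groups. Mean levels of 9 measured B lineage markers lay at 8.69 to 10.45 in heterozygous leukaemias and 8.42 and 9.05 in BCR/ABL leukaemias, against 12.41 to 12.58 in B220+ cells. The B lineage markers of heterozygous precursors lay at 11.79 to 12.02 and those of BCR/ABL precursors at 11.58 to 11.87, against 11.70 to 11.89 in wild-type precursors. The means of 10 macrophage markers lay at 7.98 to 10.32 in heterozygous leukaemias and 8.28 and 9.43 in BCR/ABL leukaemias, against 6.43 to 6.78 in B220+ cells. The mean of 4 pan-haematopoietic genes lay between 11.28 and 12.13 on every array. Some of the sorted arrays carried neutrophil transcripts: 1 of B220+ cells, 1 of BCR/ABL precursors and 2 of wild-type precursors had neutrophil means over 9.4. Results of the members are given without them where that changes a call, from a fit that also holds fewer arrays. Without these arrays 0 genes were called in heterozygous against wild-type precursors, so every call of that comparison below is lost there.

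All 10 members were lower in heterozygous leukaemias than in B220+ cells, where 18.9% of all genes were called lower. The change ran from -4.05 for Ikzf3 to -0.70 for Ikzf1, with a median of -2.26 over the members and of -0.06 over all genes. In none of the 10 did the groups overlap, a separation seen downward in 11.4% of all genes. In BCR/ABL leukaemias all 10 were again lower than in B220+ cells, where 11.9% of all genes were called lower. There the median over members was -3.56, against -0.07 over all genes, and the groups again did not overlap in any member (26.6% of all genes). Both comparisons share the 5 B220+ arrays. In whole marrow, fewer B lineage cells and less of a transcript per B lineage cell cannot be told apart, and the part of the marker differences above in these falls was not tested.

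**Figure D1:**
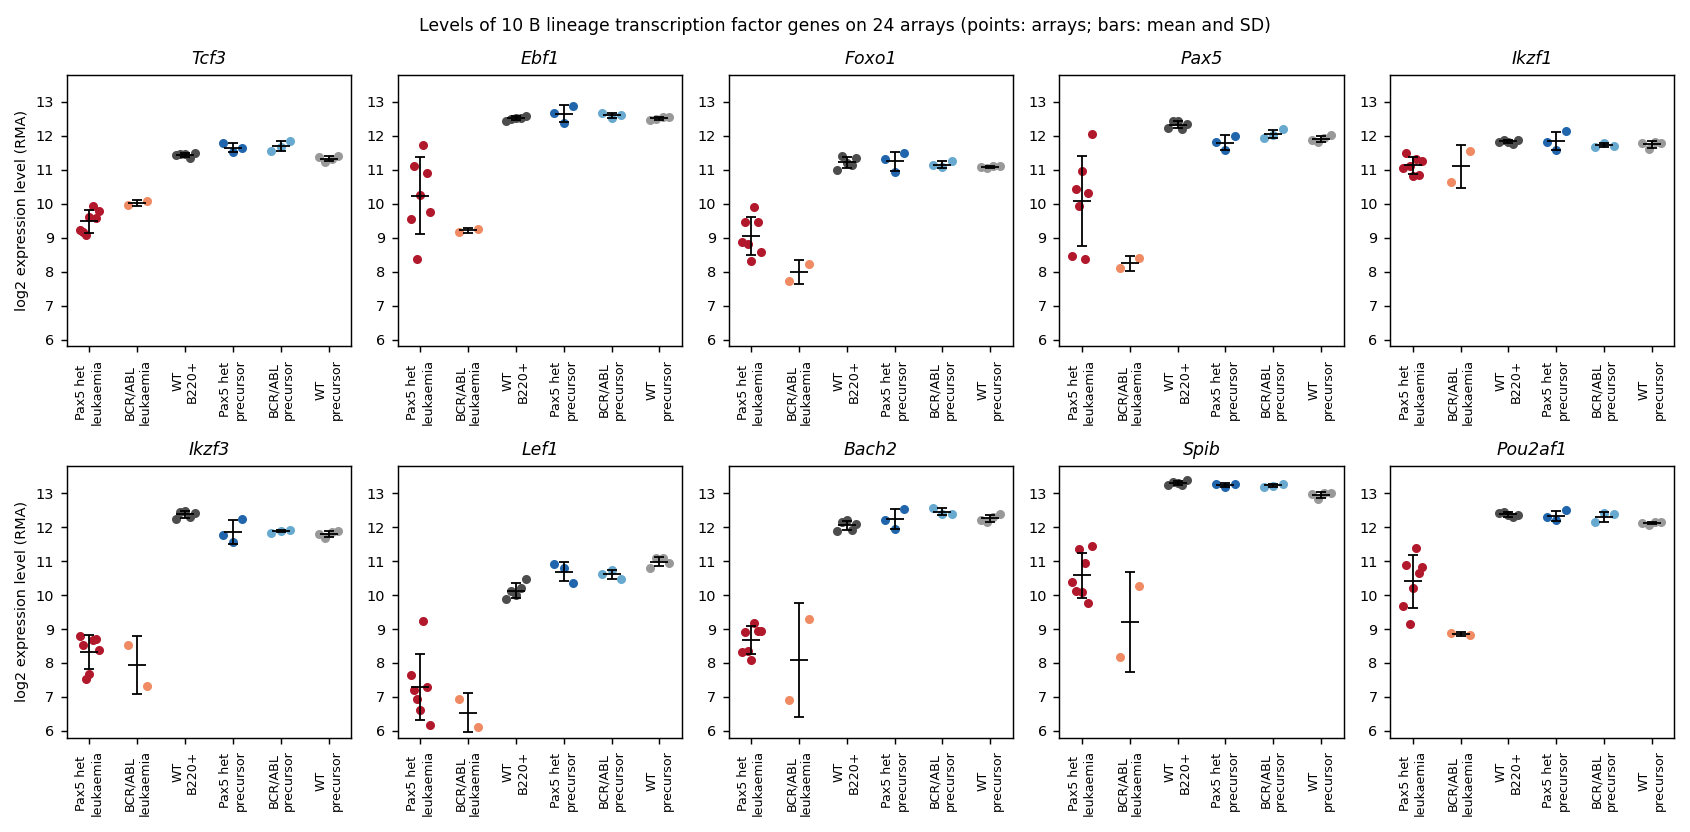
Log2 level of each member on every array, 1 panel per gene and 1 column per group, with points for arrays and bars for mean and SD. All 9 leukaemia arrays lie below all 5 B220+ arrays in every panel, and below all precursor arrays except for Pax5 in 1 heterozygous leukaemia at 12.06. In the axis labels het is Pax5 +/-, and BCR/ABL without het has no Pax5 alteration in its label.

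The genes that specify the lineage fell together in the group means but differed in how widely they ranged across mice. Tcf3, whose products bind E-boxes, ranged from 9.08 to 9.92 with a median of 9.59 in heterozygous leukaemias. It stood at 9.95 and 10.09 in BCR/ABL leukaemias, against 11.42, 11.47, 11.46, 11.34 and 11.49 in B220+ cells. Tcf3 was the tightest of the specification genes within heterozygous leukaemias, and fell by 1.96 ± 0.14 in heterozygous leukaemias (limma adjusted p = 9.06e-07) and by 1.41 ± 0.20 in BCR/ABL leukaemias (adjusted p = 0.000345). Ebf1, the pioneer factor of the lineage, ranged from 8.37 to 11.72 with a median of 10.25 in heterozygous leukaemias. It was 9.16 and 9.26 in BCR/ABL leukaemias, against 12.42, 12.51, 12.53, 12.51 and 12.59 in B220+ cells. The heterozygous mice thus spanned 3.35 log2 units for Ebf1, and the fall was -2.27 ± 0.45 there (adjusted p = 0.00222) and -3.30 ± 0.65 in BCR/ABL leukaemias (adjusted p = 0.0034). Foxo1, which drives expression of the recombination genes, ranged from 8.32 to 9.90 with a median of 8.87 in heterozygous leukaemias. It was 7.73 and 8.23 in BCR/ABL leukaemias, against 10.997, 11.42, 11.21, 11.14 and 11.34 in B220+ cells. Both BCR/ABL leukaemias lay below all 7 heterozygous ones for Foxo1, which changed by -2.17 ± 0.24 in heterozygous leukaemias (adjusted p = 3.18e-05) and by -3.24 ± 0.34 in BCR/ABL leukaemias (adjusted p = 5.46e-05).

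Pax5, the commitment factor, varied most widely of the 10 among heterozygous leukaemias, over 3.69 log2 units. Its levels in mice 1 to 7 were 8.45, 10.43, 9.93, 10.95, 8.37, 10.30 and 12.06. In BCR/ABL leukaemias, whose label gives no Pax5 alteration, they were 8.10 and 8.39, against 12.24, 12.44, 12.42, 12.20 and 12.33 in B220+ cells. Mouse 7 thus came within 0.27 of the B220+ mean, while mice 1 and 5 stood beside the BCR/ABL leukaemias. Pax5 was 4.78-fold lower in heterozygous leukaemias (log2 change -2.26 ± 0.53, adjusted p = 0.0063) and 17.0-fold lower in BCR/ABL leukaemias (-4.09 ± 0.76, adjusted p = 0.00241). Whether the probe set lies inside the altered part of the Pax5 allele is not given, so its level does not check the genotype.

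The Ikaros family split. Ikzf1 was the member with the smallest fall, and its levels in heterozygous leukaemias ran from 10.81 to 11.50 with a median of 11.10. BCR/ABL leukaemias had 10.65 and 11.55, against 11.81, 11.89, 11.82, 11.76 and 11.87 in B220+ cells. The change in Ikzf1 was -0.70 ± 0.15 in heterozygous leukaemias (adjusted p = 0.00312) and -0.73 ± 0.21 in BCR/ABL leukaemias (adjusted p = 0.0268). The call in BCR/ABL leukaemias was lost without mouse 1, which leaves 1 array (-0.28, adjusted p = 0.422), without B220+ array 2 (adjusted p = 0.0514) and, with all arrays kept, with array weights (-0.74, adjusted p = 0.0648). Ikzf3, which encodes Aiolos, ran from 7.53 to 8.80 with a median of 8.53 in heterozygous leukaemias and was 8.54 and 7.33 in BCR/ABL leukaemias. Its levels in B220+ cells were 12.24, 12.44, 12.46, 12.29 and 12.43, over 3 log2 units above every leukaemia. Ikzf3 was 16.5-fold lower in heterozygous leukaemias (-4.05 ± 0.25, adjusted p = 3.52e-07) and 21.6-fold lower in BCR/ABL leukaemias (-4.43 ± 0.36, adjusted p = 9.68e-06), the largest fall of the 10 members in both.

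Lef1 and Bach2 act in precursors. Lef1, a nuclear effector of Wnt signalling in pro-B cells that T cells also express, ran from 6.19 to 9.22 with a median of 7.20 in heterozygous leukaemias. It was 6.94 and 6.13 in BCR/ABL leukaemias, against 9.88, 10.11, 10.002, 10.20 and 10.47 in B220+ cells. Mouse 5 alone stood over 9 among the leukaemias, and Lef1 fell by 2.83 ± 0.41 in heterozygous leukaemias (adjusted p = 0.000229) and by 3.60 ± 0.58 in BCR/ABL leukaemias (adjusted p = 0.00097). Bach2, a repressor that acts at the pre-B cell checkpoint and later restrains plasma cell formation, ran from 8.08 to 9.19 with a median of 8.93 in heterozygous leukaemias. It was 6.90 and 9.28 in BCR/ABL leukaemias, against 11.89, 12.14, 12.20, 11.92 and 12.08 in B220+ cells. The BCR/ABL pair differed by 2.38 log2 units, 1 mouse below and 1 above all 7 heterozygous ones. The change in Bach2 was -3.37 ± 0.33 (adjusted p = 1.26e-05) in heterozygous and -3.95 ± 0.47 (adjusted p = 0.000125) in BCR/ABL leukaemias.

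Spib and Pou2af1 act in mature B cells, and both were also high in wild-type precursors, with means of 12.95 and 12.12. Spib, an ETS factor of B cells that plasmacytoid dendritic cells also use, ran from 9.76 to 11.43 with a median of 10.38 in heterozygous leukaemias. BCR/ABL leukaemias had 8.16 and 10.25, against 13.24, 13.32, 13.30, 13.25 and 13.38 in B220+ cells. Spib fell by 2.72 ± 0.36 in heterozygous leukaemias (adjusted p = 0.000127) and fell by 4.09 ± 0.52 in BCR/ABL leukaemias (adjusted p = 0.000186). Pou2af1, the B cell coactivator of octamer-binding factors, ran from 9.16 to 11.39 with a median of 10.65 in heterozygous leukaemias. BCR/ABL leukaemias had 8.89 and 8.81, below all 7, against 12.41, 12.44, 12.36, 12.29 and 12.34 in B220+ cells. The changes in Pou2af1 were -1.97 ± 0.31 in heterozygous leukaemias (adjusted p = 0.000433) and -3.52 ± 0.44 in BCR/ABL leukaemias (adjusted p = 0.000185).

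**Figure D2:**
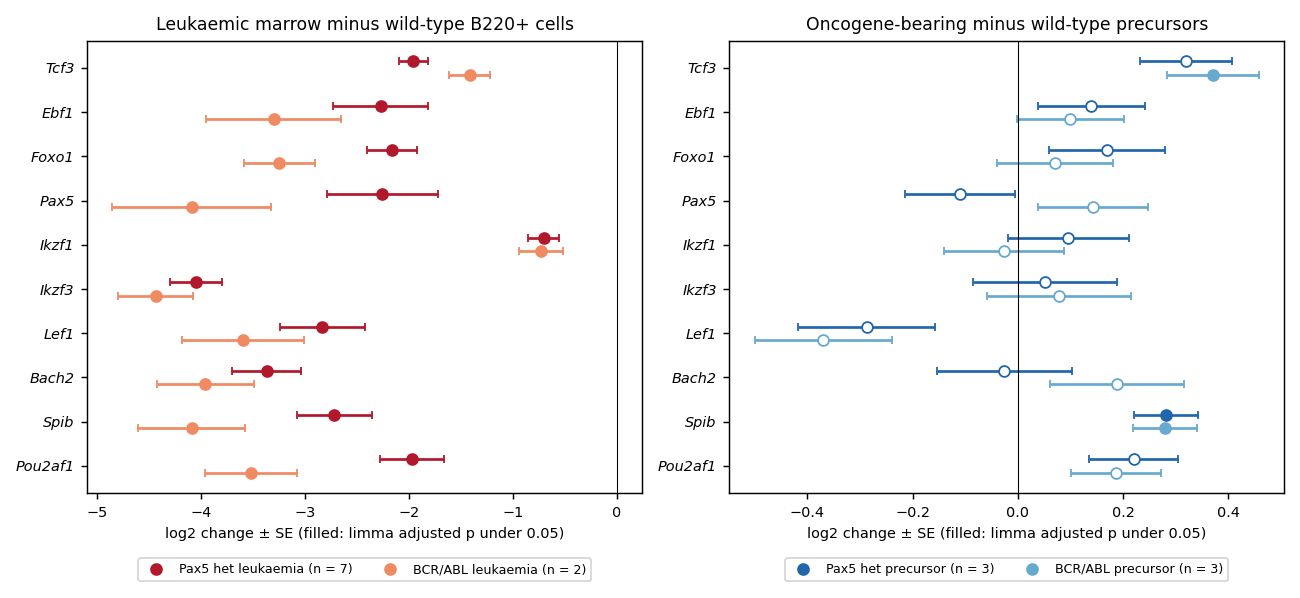
Log2 change of each member in leukaemic marrow against wild-type B220+ cells (left) and in oncogene-bearing against wild-type precursors (right), with points for limma estimates, bars for SE and filled points for an adjusted p under 0.05. All 20 points on the left are filled and lie between -4.43 and -0.70. On the right, on a narrower scale, 3 points are filled, Spib in both groups and Tcf3 in BCR/ABL precursors.

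Against wild-type precursors, the other normal group, all 10 members were also lower in both kinds of leukaemia. In heterozygous leukaemias, where 19.6% of all genes were called lower, the members' median change was -2.15, against -0.05 over all genes. In BCR/ABL leukaemias, where 12% of all genes were called lower, the median was -3.48, against -0.06 over all genes. The fall of Lef1, which is high in precursors, was the largest in both, at -3.68 ± 0.36 (adjusted p = 2.93e-07) in heterozygous and -4.44 ± 0.49 (adjusted p = 3.55e-06) in BCR/ABL leukaemias. In 9 members no heterozygous leukaemia reached any wild-type precursor (13.7% of all genes). Pax5 was the exception, since mouse 7 at 12.06 exceeded all 4 precursor arrays. The change in Pax5 was -1.83 ± 0.46 in heterozygous leukaemias (adjusted p = 0.00483) and -3.66 ± 0.64 in BCR/ABL leukaemias (adjusted p = 0.000417). Without the arrays with most neutrophil RNA, Pax5 was at -1.91 in heterozygous leukaemias (adjusted p = 0.053). The smallest change in BCR/ABL leukaemias, that of Ikzf1 (-0.65, adjusted p = 0.0221), shrank to -0.20 without BCR/ABL leukaemia 1 (adjusted p = 0.57). With both BCR/ABL leukaemias kept, Ikzf1 was at -0.67 with array weights (adjusted p = 0.096) and at -0.65 with only those 2 groups in the fit (adjusted p = 0.126). Without the arrays with most neutrophil RNA it was at -0.70 (adjusted p = 0.0699).

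Heterozygous and BCR/ABL leukaemias were compared directly to ask whether Pax5 copy number goes with the level of the other members. No member passed the test, where 1.87% of all genes were called in either direction, although 5 of the 10 had an unadjusted p under 0.05 (13.9% of all genes) and 9 of the 10 differences were positive. The largest were Pax5 at 1.83 ± 0.73 (adjusted p = 0.263), Pou2af1 at 1.55 ± 0.43 (adjusted p = 0.0948), Spib at 1.37 ± 0.50 (adjusted p = 0.208) and Foxo1 at 1.08 ± 0.33 (adjusted p = 0.135). For Pax5 all 7 heterozygous arrays lay above the BCR/ABL mean, and its unadjusted 95% interval ran from 0.25 to 3.41. The fit of 14 arrays behind these intervals and p-values also holds the B220+ arrays. The SD of Pax5 was 0.11 in B220+ cells, 1.32 in heterozygous leukaemias and 0.21 in BCR/ABL leukaemias. This fit too can therefore understate the spread of the leukaemias, and its intervals can be too narrow. Tcf3 went the other way at -0.54 ± 0.19 (adjusted p = 0.19), with all 7 heterozygous arrays below both BCR/ABL ones (4.29% of all genes), while Foxo1 and Pou2af1 were above both in all 7 (4.25% of all genes). Ikzf1 had the smallest difference, with a 95% interval from -0.41 to 0.47. The sign of some positive differences rested on single arrays. With 1 array left out at a time, Ikzf1 ran from -0.42 to 0.48, Ikzf3 from -0.22 to 0.99 and Bach2 from -0.60 to 1.78. With all 24 arrays sharing the spread, where 5.21% of all genes were called, 3 members passed, Foxo1 (adjusted p = 0.0236), Spib (0.0489) and Pou2af1 (0.00998). The precursor arrays added there vary less than heterozygous leukaemias, so that fit can understate the leukaemias' spread. The SD of Spib was 0.04 to 0.08 in the precursor groups, 0.66 in heterozygous leukaemias and 1.48 in BCR/ABL leukaemias. Single arrays decide some calls. Without BCR/ABL leukaemia 2, Bach2 was at 1.78 (adjusted p = 0.00531) and Spib at 2.42 (adjusted p = 0.00969). Without BCR/ABL leukaemia 1, Bach2 was instead at -0.60 (adjusted p = 0.692) and Spib at 0.33 (adjusted p = 0.934). Either fit leaves 1 BCR/ABL leukaemia, which is assumed to vary like the other groups. Without heterozygous leukaemia 3 the adjusted p of Pou2af1 was 0.0169. Neutrophil markers moved with this contrast, at 7.42 to 10.36 in heterozygous leukaemias and 12.13 and 12.66 in BCR/ABL leukaemias, while the medians of B lineage and plasmacytoid dendritic cell markers were higher in heterozygous leukaemias. B lineage marker means were 8.69 to 10.45 in heterozygous leukaemias and 8.42 and 9.05 in BCR/ABL leukaemias, with a median change of 0.79 and 1 of 9 genes called higher. Plasmacytoid dendritic cell marker means, relevant to Spib, were 8.54 to 10.84 in heterozygous leukaemias and 7.33 and 9.26 in BCR/ABL leukaemias, with a median change of 1.38 and 1 of 7 called higher. The part of these markers in the differences was not tested.

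Seen mouse by mouse, all 10 members lay below every B220+ array in each of the 9 leukaemias, but their order differed. The mean of the B220+ arrays is taken as 0 for the differences that follow. Ikzf1 had the smallest fall in 8 of the 9 leukaemias. Ikzf3 had the largest fall in 5 heterozygous leukaemias and in BCR/ABL leukaemia 2. In mouse 1 and mouse 5 of the heterozygous group the largest fall was instead that of Pax5, at -3.88 and -3.96, and in BCR/ABL leukaemia 1 it was that of Bach2 at -5.14.

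Heterozygous leukaemias 5 and 7 differed most in Pax5 and Lef1. In mouse 5 Ebf1 was at -0.79, Lef1 at -0.91, Pou2af1 at -0.98 and Foxo1 at -1.33, the smallest falls of these 4 genes among the 7 mice, while Pax5 was at -3.96. In mouse 7 Pax5 was at -0.27, while Ikzf3 was at -4.00 and Lef1 at -3.94. Some other members were closer in the pair. Tcf3 was at -1.51 in mouse 5 and -1.65 in mouse 7, Bach2 at -2.86 and -3.09, and Ikzf3 at -3.70 and -4.00. The B lineage marker means of these mice were 10.16 in mouse 5 and 9.18 in mouse 7, and the pro-B and pre-B marker mean was the highest of the 7 in mouse 5 and 7.62 in mouse 7. Mouse 7 had the lowest macrophage (7.98), neutrophil (7.42), stroma (7.69) and T and NK cell (6.74) marker means of the 7, and its Pax5 level was the highest. The part of these marker differences in the Pax5 level was not tested.

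**Figure D3:**
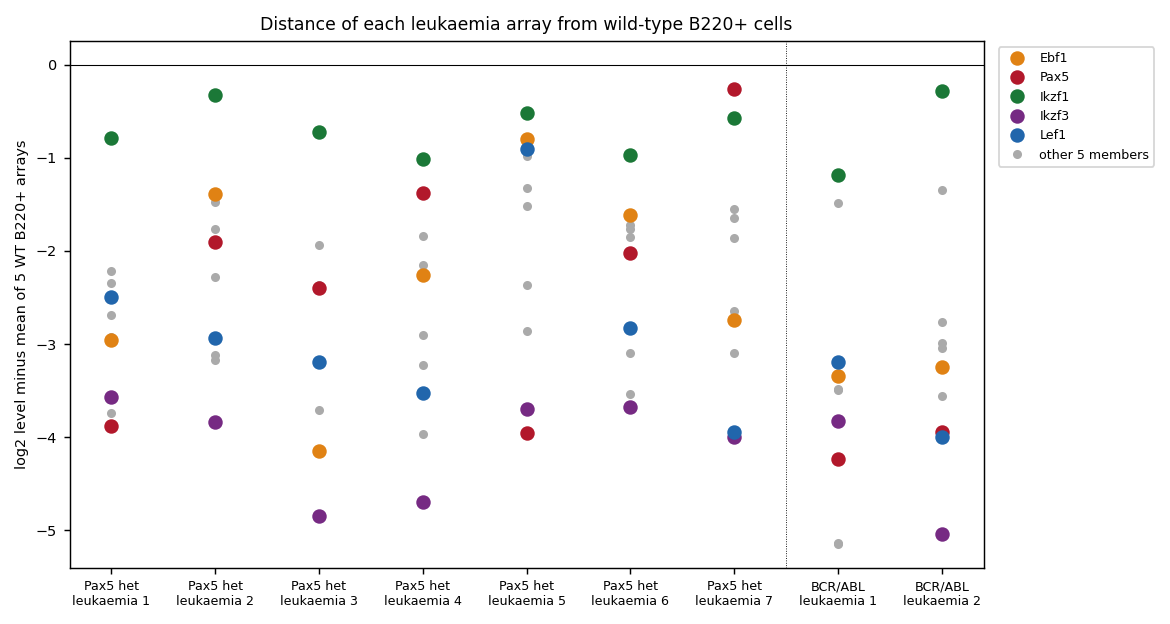
Difference of each member from the mean of the 5 wild-type B220+ arrays (log2) in each of the 9 leukaemias, with coloured points for 5 members and grey for the other 5. All values lie below 0, Ikzf1 is the highest point in 8 of 9 columns, and heterozygous mice 5 and 7 differ most in Pax5, at -3.96 and -0.27.

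Across the 7 heterozygous leukaemias, the level of Pax5 was set against that of each other member. Pax5 and Lef1 ran opposite, with Pearson's r of -0.86 (exact permutation p = 0.00893, adjusted p = 0.0804 over 9 relations) and Spearman's rho of -0.893 (exact p = 0.0123, adjusted p = 0.111). Leaving out the 2 mice farthest from the median in Pax5 gave r = -0.865. Pax5 and Foxo1 had r = -0.551 (exact permutation p = 0.198, adjusted p = 0.889) and rho = -0.643. For Ebf1, its partner in the sustaining loop, r was -0.18 (exact permutation p = 0.694, adjusted p = 0.98). None of the 9 relations passed the adjusted threshold, and 1 had an unadjusted p under 0.05. T and NK cell marker means over the same mice ran from 6.74 to 9.06, and their part in the Lef1 values was not tested. Over all 45 pairs of members, a set added after the values were seen, Ebf1 and Pou2af1 had the highest r, 0.90 (exact permutation p = 0.00615, adjusted p = 0.201), and it fell to 0.629 without the 2 mice farthest from the median in Ebf1. Foxo1 and Lef1 had r = 0.807 and Bach2 and Pou2af1 r = 0.821, and no pair passed. B lineage marker means over the same mice ran from 8.69 to 10.45, and pro-B and pre-B marker means from 7.47 to 10. Mice 2, 5 and 6 had the highest of both means and the highest Ebf1 levels. The part of B lineage cell content in these correlations was not tested.

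**Figure D4:**
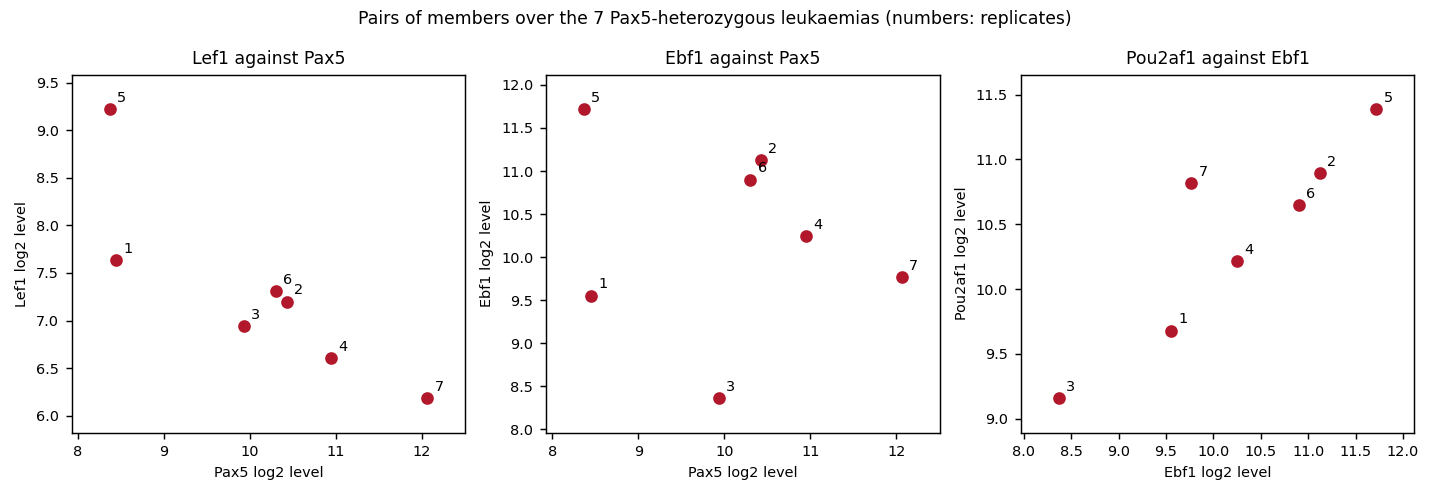
Log2 levels of 3 pairs of members over the 7 heterozygous leukaemias, with 1 numbered point per mouse. Lef1 declines with Pax5 (r = -0.86), Ebf1 shows no such line with Pax5 (r = -0.18), and Pou2af1 rises with Ebf1 (r = 0.90). No pair passed the adjusted threshold.

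The genes whose level most resembled that of Pax5 over all 24 arrays, outside the members, were Nfkbia (r = 0.942), Tnfaip3 (0.91), P2rx3 (0.898), Cd37 (0.893) and Tfeb (0.884). The leukaemias stand apart from the sorted cells in these values, and over the 7 heterozygous leukaemias alone the same genes had r of 0.846, 0.574, 0.611, 0.54 and 0.636. Nfkbia and Tnfaip3 are feedback inhibitors of NF-kB signalling, and Cd37 is a B cell surface tetraspanin.

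The preleukaemic precursors showed little of this. In BCR/ABL precursors against wild-type precursors, 2 of the 10 members rose, where 11.6% of all genes were called higher, and 0 fell, where 15.5% were called lower. Tcf3 was 11.56, 11.68 and 11.85 in BCR/ABL precursors, against 11.37, 11.22, 11.32 and 11.39 in wild-type precursors. All 3 arrays exceeded all 4, and Tcf3 rose by 0.37 ± 0.09 (limma adjusted p = 0.0159). Spib was 13.19, 13.22 and 13.28 in BCR/ABL precursors, against 12.98, 12.83, 12.997 and 12.99 in wild-type precursors. Again the groups did not overlap, as in 19.3% of all genes in this direction, and Spib rose by 0.28 ± 0.06 (adjusted p = 0.0117). Without the arrays with most neutrophil RNA, Tcf3 was at 0.41 (adjusted p = 0.0896) and Spib at 0.25 (adjusted p = 0.1). These differences stayed near those above, in a fit with fewer arrays. Without BCR/ABL precursor 3, Tcf3 was at 0.29 (adjusted p = 0.0626). Lef1 was 10.60, 10.75 and 10.47 in BCR/ABL precursors, against 10.80, 11.08, 11.08 and 10.94 in wild-type precursors. Its groups did not overlap either (22.9% of all genes downward), but the difference of -0.37 ± 0.13 missed the threshold (adjusted p = 0.0605). The other 7 members had differences between -0.03 and 0.19, and Pax5 was at 0.14 ± 0.10 (adjusted p = 0.312).

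In heterozygous precursors against wild-type precursors, 1 member rose, where 1.23% of all genes were called higher, and 0 fell, where 2.94% were called lower. Spib was 13.26, 13.17 and 13.26 in heterozygous precursors, all above the 4 wild-type arrays given above, and rose by 0.28 ± 0.06 (adjusted p = 0.0361). This call was lost when any 1 of the 7 arrays was left out, at 0.24 to 0.31 with adjusted p from 0.0516 to 0.0914. It was also lost without the arrays with most neutrophil RNA, at 0.24 (adjusted p = 0.261). Tcf3 was 11.79, 11.52 and 11.62 in heterozygous precursors, also above all wild-type arrays, at 0.32 ± 0.09 (adjusted p = 0.0715). Pou2af1 separated in the same way at 0.22 ± 0.09 (adjusted p = 0.165), and these 3 of 10 compare with 12.3% of all genes. Lef1 was 10.90, 10.80 and 10.37 in heterozygous precursors, at -0.29 ± 0.13 (adjusted p = 0.223). Pax5 was 11.80, 11.58 and 12.004 in heterozygous precursors, against 11.86, 11.81, 11.93 and 12.02 in wild-type precursors, and the groups overlapped (-0.11 ± 0.10, adjusted p = 0.543). Both precursor comparisons share the 4 wild-type arrays.

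Markers of other cells differed between these sorted groups. T and NK cell marker means were 7.39 to 7.82 in heterozygous precursors and 7.22 to 7.83 in BCR/ABL precursors, against 8.14 to 8.51 in wild-type precursors, and Lef1 is also a T cell gene. Plasmacytoid dendritic cell marker means, relevant to Spib, were 8.09 to 9.17 in heterozygous and 8.23 to 8.996 in BCR/ABL precursors, against 9.42 to 9.71 in wild-type precursors. The part of either in the member values was not tested. By Xist and Y-linked genes the BCR/ABL precursors were 3 males and the wild-type precursors 4 females, so genotype and sex cannot be told apart there. The heterozygous precursors were 1 female and 2 males.

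Heterozygous and BCR/ABL precursors, which both carry the oncogene, were compared to isolate the Pax5 copy. No member passed, where 0.0251% of all genes (5 genes) were called in either direction, and 1 of the 10 had an unadjusted p under 0.05 (14.3% of all genes). That was Pax5, at 11.80, 11.58 and 12.004 in heterozygous precursors and 11.93, 12.03 and 12.19 in BCR/ABL precursors. All 3 heterozygous arrays lay below the BCR/ABL mean but the groups overlapped, and the difference was -0.25 ± 0.11 (95% interval -0.50 to -0.0027, adjusted p = 0.345). A difference of -1, a 2-fold lower level, lies outside that interval, which comes from the fit without pairing. Between same-numbered arrays the heterozygous minus BCR/ABL difference was -0.13, -0.45 and -0.18, lower in all 3, and with the replicate number as a block Pax5 was at -0.25 (adjusted p = 0.324). Bach2 was at -0.21 ± 0.14 (adjusted p = 0.492) and the other members between -0.05 and 0.12.

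The Pax5 copy difference was then compared between stages, as the heterozygous minus BCR/ABL difference in leukaemias less that in precursors. No member passed, where 0.692% of all genes did, and 5 of the 10 had an unadjusted p under 0.05 (13.1% of all genes). The largest values were Pax5 at 2.08 ± 0.84 (adjusted p = 0.288), Pou2af1 at 1.52 ± 0.49 (adjusted p = 0.171) and Spib at 1.37 ± 0.57 (adjusted p = 0.301). Without BCR/ABL leukaemia 2, Spib stood at 2.42 (adjusted p = 0.00506) and Bach2 at 1.99 (adjusted p = 0.00171). Without BCR/ABL leukaemia 1, Spib stood at 0.33 (adjusted p = 0.795) and Bach2 at -0.39 (adjusted p = 0.65), and each of these fits again holds 1 BCR/ABL leukaemia. Without heterozygous leukaemia 3 Pou2af1 stood at 1.72 (adjusted p = 0.0277).

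The normal stages were also compared with each other. B220+ cells, which include later B cells, and wild-type precursors differed in 0 members with all 24 arrays in the fit, where 8.84% of all genes were called, with 2 members at an unadjusted p under 0.05 (20.2% of all genes). These were Ikzf3 at 0.57 ± 0.25 (adjusted p = 0.182) and Lef1 at -0.85 ± 0.38 (adjusted p = 0.212). With only those 2 groups in the fit, whose arrays vary less than the leukaemias, 24% of all genes were called and 5 members passed. Pax5 (0.42, adjusted p = 0.00098), Ikzf3 (0.57, 0.000126), Spib (0.35, 0.000789) and Pou2af1 (0.25, 0.00312) were higher in B220+ cells, and Lef1 (-0.85, 0.000282) was lower. The same 5 were those whose arrays did not overlap, as in 11.2% of all genes upward and 11.3% downward. Ebf1 was nearly level, at 12.51 ± 0.06 in B220+ cells and 12.51 ± 0.04 in wild-type precursors (SD, n = 5 and 4).

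Known targets of the members were read from lists of genes, described by counts and with no test of the list. Some targets are also cell type markers. Cd79a, Blnk, Cd72, Cd22, Vpreb3, Cd79b and Fcrla are B lineage markers, and Cr2 and Fcer2a mature B cell markers. Vpreb1, Vpreb2, Igll1, Dntt, Rag1, Rag2 and Il7r are pro-B and pre-B markers. Their falls in unsorted marrow are thus not separate from the marker differences above, whose part in the target counts was not tested. Against B220+ cells, 18.9% of all genes were called lower in heterozygous and 11.9% in BCR/ABL leukaemias. Of 12 measured Pax5-activated genes, 11 were lower in heterozygous leukaemias than in B220+ cells and all 12 in BCR/ABL leukaemias, with medians of -2.91 and -3.50. Among them, in heterozygous leukaemias, were the complement receptor Cr2 (-4.09 ± 0.25, adjusted p = 3.21e-07), the inhibitory lectin Siglecg (-3.29 ± 0.33, adjusted p = 1.51e-05) and Cplx2 (-1.89 ± 0.19, adjusted p = 1.31e-05). Cr2 was itself 4.19 ± 0.24 higher in B220+ cells than in wild-type precursors (adjusted p = 2.11e-09). Against wild-type precursors, Cr2 was at 0.31 ± 0.30 in BCR/ABL leukaemias (adjusted p = 0.489). Siglecg and Cplx2 were not called between the normal groups (adjusted p = 0.462 and 0.605). Of 8 genes activated by Ebf1 and Tcf3, 3 fell in heterozygous and 4 in BCR/ABL leukaemias, with medians of -1.47 and -2.25. The 3 were Fcrla (-4.28 ± 0.43, adjusted p = 1.51e-05), the receptor chain Cd79b (-1.41 ± 0.21, adjusted p = 0.000312) and the kinase Blk (-1.53 ± 0.46, adjusted p = 0.0234). The surrogate light chain gene Vpreb1, at -0.48 ± 0.36 in heterozygous leukaemias (adjusted p = 0.318), did not pass there.

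Of 10 Foxo1-activated genes, 7 fell and 1 rose in heterozygous leukaemias, and 7 fell in BCR/ABL leukaemias, with medians of -1.46 and -2.05. Klf2, a factor of quiescence and trafficking, was at -2.52 ± 0.17 (adjusted p = 7.36e-07) in heterozygous leukaemias, and the egress receptor S1pr1 at -2.82 ± 0.32 (adjusted p = 4e-05). Of 10 genes that Pax5 represses, 6 rose and 1 fell in heterozygous leukaemias, and 4 rose and 1 fell in BCR/ABL leukaemias, with medians of 2.17 and 2.01. Of all genes, 12.9% were called higher and 18.9% lower in heterozygous leukaemias, and 9.48% higher and 11.9% lower in BCR/ABL leukaemias. Jchain, the joining chain of secreted antibodies, was at 5.06 ± 0.41 (adjusted p = 2.61e-06) and Csf1r, the macrophage growth factor receptor, at 3.75 ± 0.41 (adjusted p = 2.75e-05) in heterozygous leukaemias. Csf1r is itself among the macrophage markers given above, which moved the same way, and their part in it was not tested.

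Against wild-type precursors, the Pax5-activated list had 8 lower and 1 higher in heterozygous leukaemias and 8 lower in BCR/ABL leukaemias. The Ebf1 and Tcf3 list had 6 lower and 1 higher in each, the Foxo1 list 7 lower in each with 1 higher in heterozygous leukaemias, and the Pax5-repressed list 5 higher and 1 lower in each. Of all genes, 12.7% were called higher and 19.6% lower there in heterozygous leukaemias, and 9.36% higher and 12% lower in BCR/ABL leukaemias. Fewer genes of these lists passed between precursor groups. Against wild-type precursors, 1.23% of all genes were called higher and 2.94% lower in heterozygous precursors. In BCR/ABL precursors 11.6% were called higher and 15.5% lower, and the counts given next for that group lie near these shares. In BCR/ABL precursors against wild-type precursors, 1 Pax5-activated gene rose (Cd79a, 0.32 ± 0.09, adjusted p = 0.0316) and 1 fell (Cd22, -0.40 ± 0.10, adjusted p = 0.018). In heterozygous precursors 1 rose (Fcer2a, 0.57 ± 0.12, adjusted p = 0.0336) and 1 fell (Rasgrp3, -0.90 ± 0.15, adjusted p = 0.0211). Of the 10 Pax5-repressed genes 2 fell in each precursor group, with list medians of -0.61 in heterozygous and -0.46 in BCR/ABL precursors, against 0.03 and 0.04 over all genes. The adhesion gene Emb was at -2.67 ± 0.52 (adjusted p = 0.0279) in heterozygous and -2.11 ± 0.52 (adjusted p = 0.018) in BCR/ABL precursors, and the T cell costimulatory receptor Cd28 at -0.76 ± 0.14 (adjusted p = 0.0263) in heterozygous and -0.69 ± 0.14 (adjusted p = 0.0103) in BCR/ABL precursors. The T and NK cell markers moved the same way as Cd28, and their part in it was not tested. Without the arrays with most neutrophil RNA, 0 genes were called in heterozygous and 243 in BCR/ABL precursors against wild-type precursors. Values of single list genes in that fit are not given here.

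Of 17 other measured B cell transcription factors, 10 fell and 0 rose in heterozygous leukaemias against B220+ cells, with a median of -0.85. In BCR/ABL leukaemias 6 fell and 0 rose, with a median of -1.23. The shares of all genes called lower were 18.9% and 11.9%. Irf4, needed for pre-B differentiation and for plasma cells, was at -2.73 ± 0.33 (adjusted p = 5.95e-05) in heterozygous and -4.10 ± 0.47 (adjusted p = 1e-04) in BCR/ABL leukaemias. Mef2d, a MEF2 factor of early B cell development, was at -1.29 ± 0.20 (adjusted p = 0.000409) in heterozygous leukaemias. In precursors Mef2d was higher than in wild type, by 0.48 ± 0.10 (adjusted p = 0.0353) in heterozygous and 0.41 ± 0.10 (adjusted p = 0.0185) in BCR/ABL precursors. The call in heterozygous precursors is among those lost without the arrays with most neutrophil RNA.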

How the data were processed

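Total RNA was extracted with Trizol, labelled with biotin and hybridised to mouse gene arrays, 1 per sample, per the labels' protocols. The deposited log2 values per probe set were made with RMA in the oligo package, per the submitters' processing notes, with no versions stated and no word on whether the 24 arrays were normalised together. RMA equalises distributions between arrays, so changes are relative to the whole array. Of 35556 probe sets (values 3.795 to 14.31), 21789 carried 1 gene symbol and were used, 1621 carried several and 12146 none. Gene identifiers of 21698 matched the RefSeq table of GRCm38.p6. For genes with several probe sets the one with the highest mean was kept, leaving 19938 genes.

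Groups follow the sample titles, which call the replicates biological. Differences were tested with limma 3.58.1 in R 4.3.3 (lmFit and eBayes, two-sided, Benjamini-Hochberg over all genes, threshold 0.05). The 14 leukaemia-set arrays and the 10 precursor arrays were fitted apart, and all 24 for comparisons across sets. The fit was tested on simulated data. Correlations used exact permutation tests (scipy 1.17.1, Python 3.11.15). The members, target lists and marker lists were chosen with earlier results of these data known. Members are all named, and of each list described, up to 3 genes past the test by lowest adjusted p could be named, and genes beyond these (such as Vpreb1 and Prdm1) were chosen after their values were seen. Deviations of same-numbered heterozygous and BCR/ABL precursors correlated at 0.208 to 0.25 in all 3 pairs, so these are read as paired from the data, while the labels name no shared litter. Other same-numbered arrays share a number alone. Alternatives were other scalings, array weights, a filter on dim genes, other samples in the fit, a replicate block, leaving out each array and, added after seeing the data, leaving out 4 sorted arrays with neutrophil means over 9.4.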

Additional observations from a re-analysis of the deposited data

Results flagged for a closer look

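Wild-type precursor 2 was flagged as an outlier in 2 of the 10 genes, within groups of narrow range. Its Ikzf1 level, 11.60, was the lowest of the 4 arrays, the nearest being 11.79, with a gap of 0.866 of the group's range of 0.22. Its Spib level, 12.83, was also the lowest, the nearest being 12.98, with a gap of 0.892 of the range of 0.17. Among 30 combinations of gene and group of 4 to 10 arrays, chance alone marks about 1 in 20. The array is 1 of those with neutrophil means over 9.4. Without wild-type precursor 2, the Spib difference of heterozygous precursors was 0.24 (limma adjusted p = 0.0891).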

How the results depend on the processing

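Against B220+ cells all 10 members stayed lower in heterozygous leukaemias under all 22 alternatives, and 9 to 10 did in BCR/ABL leukaemias under 17. Against wild-type precursors it was 9 to 10 under 21 and 16. No called member reversed its direction, while members that were not called could. Between the leukaemias Bach2 was at -0.60 without BCR/ABL leukaemia 1, and with 1 array left out Ikzf1 reached -0.42 and Ikzf3 -0.22. In the other comparisons the number of members higher changed as follows. In heterozygous against wild-type precursors it was 0 after quantile normalisation again, without dim genes, with all 24 arrays, with the replicate block and without the neutrophil-rich arrays, 0 whichever array was left out, and 4 with array weights. In BCR/ABL against wild-type precursors it was 0 with all 24 arrays and without the neutrophil-rich arrays, 3 with cyclic loess and with array weights (Pou2af1 added, adjusted p = 0.0271 and 0.0412), and 1 to 3 when an array was left out. Between the leukaemias it was 3 with all 24 arrays and 0 to 2 with an array left out, and for the stage difference also 0 to 2. Between B220+ cells and wild-type precursors, 1 was lower and 4 higher with 2 groups, 1 lower and 1 higher with array weights and 1 lower with the replicate block.

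Counts of all genes called moved more. With array weights they were 2281 (BCR/ABL leukaemias against B220+ cells), 83 (between leukaemias), 5099 (heterozygous against wild-type precursors), 79 (between oncogene-bearing precursors), 1347 (BCR/ABL leukaemias against wild-type precursors), 5932 (B220+ against precursors) and 38 (stages). With the replicate block the first 4 were 2726, 106, 253 and 0, and stages 209. With other samples in the fit they were 1038 between leukaemias, 275 for heterozygous against wild-type precursors, 2 between oncogene-bearing precursors and 4783 for B220+ against precursors. BCR/ABL against wild-type precursors gave 3406 with cyclic loess, 3368 without dim genes and 243 without the neutrophil-rich arrays. Dim genes out left 3 between oncogene-bearing precursors, and 4140 and 2834 for heterozygous and BCR/ABL leukaemias against wild-type precursors. The neutrophil-rich arrays out left 0 for heterozygous against wild-type precursors, 0 between oncogene-bearing precursors, 3932 and 2765 for the leukaemias against wild-type precursors, and 616 for B220+ against precursors. With 1 array left out, the ranges were 4816 to 6205 and 2235 to 4755 (heterozygous and BCR/ABL leukaemias against B220+), 279 to 2137 (between leukaemias), 37 to 1063 and 2331 to 6015 (heterozygous and BCR/ABL against wild-type precursors), 1 to 138 (between them), 4570 to 6520 and 2335 to 4698 (leukaemias against wild-type precursors), 1187 to 1605 (B220+ against precursors) and 52 to 1381 (stages). The causes were not tested.

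The share of called genes that were higher was 54.6% with cyclic loess, against 40.5% as reported, in heterozygous leukaemias against B220+ cells, and 58.6% against 44.4% in BCR/ABL leukaemias. Against wild-type precursors it was 57.2% against 39.3% and 62.9% against 43.7%. With median centring it was 30.1% against 42.9% for BCR/ABL precursors and 63.6% against 51.8% for B220+ cells, and with cyclic loess 43.6% against 32.6% for the stage difference and 40% against 60% of 5 genes between oncogene-bearing precursors. Small groups, 2 BCR/ABL leukaemias above all, and unsorted marrow limit what these arrays can separate.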

Other observations

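Relatives of the members are read against the 18.9% of all genes called lower and the 12.9% called higher in heterozygous leukaemias than in B220+ cells. Of 6 measured E proteins and their inhibitors, 2 fell and 1 rose in heterozygous leukaemias against B220+ cells. Tcf12, a sister E protein of Tcf3, was at -0.74 ± 0.15 (limma adjusted p = 0.00249) and the inhibitor Id3 at -2.16 ± 0.16 (adjusted p = 1.42e-06), while the inhibitor Id2, high in innate lymphoid and myeloid cells, was at 1.83 ± 0.29 (adjusted p = 0.000503). In precursors Id2 was lower than in wild type, at -1.09 ± 0.21 (adjusted p = 0.0282) in heterozygous and -0.72 ± 0.21 (adjusted p = 0.0328) in BCR/ABL precursors. Its call in heterozygous precursors is also among those lost without the arrays with most neutrophil RNA. Of 7 octamer and ETS factors, 3 fell and 1 rose in heterozygous leukaemias. Ets1 was at -1.64 ± 0.12 (adjusted p = 1.4e-06) and Fli1 at -1.10 ± 0.12 (adjusted p = 2.54e-05), while Spic, the relative of Spib found in red pulp macrophages, was at 2.71 ± 0.53 (adjusted p = 0.00187). Spi1, the ETS factor shared by B and myeloid cells, was at -0.13 ± 0.23 (adjusted p = 0.673).

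Of 12 measured relatives of the EBF, Ikaros, BACH, FOXO and TCF/LEF families, 3 fell and 2 rose in heterozygous leukaemias, among them Ikzf5 at -0.72 ± 0.09 (adjusted p = 0.000101) and Ebf3 at 1.39 ± 0.40 (adjusted p = 0.0186). Bach1 was at 0.17 ± 0.11 (adjusted p = 0.249) and Foxo3 at -0.38 ± 0.22 (adjusted p = 0.196). Of 5 plasma cell regulators, 1 rose (Xbp1, 0.37 ± 0.11, adjusted p = 0.025) and 1 fell, and Prdm1 was at -0.15 ± 0.21 (adjusted p = 0.591). These genes were chosen with earlier results of these data known.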
